A study of Homo sapiens with 6 samples.

Results

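Expression of 10 feedback genes of the ERK pathway was examined in K562 cells: the phosphatases DUSP4, DUSP5 and DUSP6, the inhibitors SPRY1, SPRY2, SPRY4, SPRED1 and SPRED2, and the transcription factors ETV4 and ETV5. The genes were chosen as known members of this feedback and named by symbol, with earlier results of these data known, and were found through their Entrez identifiers. Of the 10 genes, 8 had values among the 12486 genes of the expression table, and DUSP4 and DUSP6 were not analysed here. K562 is an established human line from chronic myeloid leukemia, driven by the fusion kinase Bcr-Abl. One group of cells stably expressed a control shRNA against luciferase (sh-luc), and the other an shRNA against the lncRNA labelled lncRNA-up91, which the study calls lncRNA-IUR1 (sh-IUR1). Cells of both groups were infected with lentivirus carrying an shRNA, and whether each line was a clone or a pool is not given in the sources used here. Each group had 3 RNA-seq libraries, of which 1 carries no replicate number and the others are called r1 and r2. RNA came from 3 independent groups of cells per the study's methods. Since lncRNA-IUR1 itself was not analysed here, its depletion in the sh-IUR1 libraries was left unchecked.

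The ERK pathway carries signals from growth factor receptors, and in K562 cells from Bcr-Abl, through the adaptor GRB2 and the exchange factor SOS1 to RAS, and from RAS through the kinases RAF and MEK to ERK. Active ERK raises the transcription of its own inhibitors. The Sprouty proteins (SPRY) and the related SPRED proteins restrain signalling at the level of RAS and RAF. The dual-specificity phosphatases (DUSP) among the feedback genes remove the activating phosphates from ERK. ETV4 and ETV5 are ETS transcription factors of the PEA3 family whose genes respond to ERK activity and are repressed by Capicua (CIC) when ERK is inactive. The RNA levels of these genes are therefore widely used as a readout of ERK output.

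Binding letters of CIC were looked for in the promoters, since CIC represses several of these genes. RefSeq promoter windows (GRCh38.p14), each holding 250 bases before and 50 bases after the start, were matched by symbol for 6 of the 10 genes: DUSP6, SPRY1, SPRY2, SPRY4, SPRED1 and SPRED2. The CIC octamers searched on both strands were TGAATGAA, TGAATGGA, TCAATGAA and TCAATGGA. They occurred 2 times in the DUSP6 window and in none of the 5 windows of genes with values, and 3.77% of all 35116 windows held at least 1. The first DUSP6 match began at position -24 and the other at position 2, counted from the start with no position 0, and both read TCCATTGA, the reverse complement of TCAATGGA. The ETS letters CCGGAAGT, the AP-1 letters TGANTCA and the cyclic AMP response element TGACGTCA were in none of the 6 windows, against 4.14%, 7.71% and 1.85% of all windows. The stretch from 100 bases before to 20 bases after the start is shown for DUSP6, which holds the matches (capitals), and for SPRED2 and SPRY4, the genes with the highest FPKM and with the largest log2 fold change among those with both a window and values. They lie on the minus strand at chr12:89352482-89352601, chr2:65432580-65432699 and chr5:142324228-142324347 and are written from 5′ to 3′ along the gene. The SPRY4 window was set on a start inside the gene, which reaches to 142325021 on its 5′ side.
DUSP6: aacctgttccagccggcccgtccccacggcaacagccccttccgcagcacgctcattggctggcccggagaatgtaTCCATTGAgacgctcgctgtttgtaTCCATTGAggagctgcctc
SPRED2: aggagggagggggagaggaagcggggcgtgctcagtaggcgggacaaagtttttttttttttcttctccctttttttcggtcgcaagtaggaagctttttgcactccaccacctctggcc
SPRY4: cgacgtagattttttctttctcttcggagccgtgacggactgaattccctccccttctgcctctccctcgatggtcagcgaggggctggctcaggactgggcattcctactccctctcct

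Expression was given in FPKM, that is, fragments scaled to transcript length and to the mapped fragments of the library. In bulk RNA, fewer cells that express a gene and less RNA per cell cannot be told apart. The number of fragments behind each value is unknown. The K562 identity was checked with 10 erythroleukemia markers, all of which had values, with HBG2 between 2559 and 3565 FPKM and GATA1 between 182.3 and 200.4 FPKM. Among markers of other cells, values were found for 3 of 5 T cell, 2 of 4 B cell, 1 of 4 mature myeloid and 2 of 4 HEK293T genes, with CD3E at 0 to 0.18 FPKM and LYZ at 107.0 to 118.7 FPKM. The unnumbered sh-luc library stood apart from the rest. Its score on the first principal component, which held 59.3% of the variance of log2(FPKM + 1), was -19.8, and the other 5 libraries lay between -3.75 and 13.0. Genes of the integrated stress response were low in it: over the 19 of 20 listed genes with values, the mean log2(FPKM + 1) was 5.14 there, between 6.02 and 6.20 in the other sh-luc libraries and between 5.90 and 6.39 in the sh-IUR1 libraries. Log2 fold changes are therefore given with and without this library.

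None of the 8 ERK feedback genes passed the test between sh-IUR1 and sh-luc cells. The log2 fold changes of FPKM + 1 lay between -0.081 (SPRY1) and 0.091 (SPRY4), with 6 genes above 0 and 2 below, and the groups overlapped for every gene. All 8 genes passed the filter on low values, a mean of at least 0.1 FPKM. With limma across the 12276 genes tested, 0 of the 8 genes had an adjusted p-value under 0.05, 0 had an unadjusted p-value under 0.05, and the smallest adjusted p-value was 0.931. Over all genes tested, 0% were called after adjustment, 2.65% had an unadjusted p-value under 0.05 (1.65% higher and 0.994% lower in sh-IUR1) and 7.07% had groups that did not overlap. The median log2 fold change was 0.031 over the 8 genes and 0.019 over all genes tested, of which 58% lay above 0. These signs depended on the scaling: 50.7% of all genes and 4 of the 8 lay above 0 with median-ratio scaling, and 48.9% and 3 of the 8 with quantile normalization. The 95% intervals of the 8 genes together ran from -0.33 to 0.36, or 0.795-fold to 1.29-fold of FPKM + 1, and their half-widths lay between 0.16 for ETV5 and 0.27 for SPRY4.

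ETV4 was the most abundant of the genes. Its gene (identifier 2118) occupies positions 43527846 to 43546340 of chromosome 17 (GRCh38.p14, as for all genes here) on the minus strand, and its canonical transcript has 13 exons. With libraries in the order unnumbered, r1, r2, ETV4 was expressed at 40.8, 46.9 and 45.8 FPKM in sh-luc and at 45.9, 50.8 and 43.6 FPKM in sh-IUR1. The lowest value was in the unnumbered sh-luc library and the highest in sh-IUR1 r1, and the groups overlapped. The means were 44.5 ± 3.24 FPKM in sh-luc and 46.8 ± 3.67 FPKM in sh-IUR1 (SD, n = 3 each), with a log2 fold change of 0.070 (standard error 0.078, 95% interval -0.10 to 0.24, limma adjusted p = 0.931). For ETV4 the log2 fold change was 0.0098 without the unnumbered sh-luc library.

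ETV5, the other PEA3 factor (gene identifier 2119), occupies positions 186046314 to 186109089 of chromosome 3, minus strand, and also has 13 exons. Its values were 10.6, 11.3 and 11.8 FPKM in sh-luc and 11.1, 11.5 and 11.5 FPKM in sh-IUR1 libraries, so that all sh-IUR1 values fell inside the sh-luc range. ETV5 varied least of the 8 genes, with a coefficient of variation of 3.82% over the 6 libraries. The log2 fold change was 0.016 (standard error 0.073, 95% interval -0.15 to 0.18, limma adjusted p = 0.974), and it changed sign with median-ratio scaling, with quantile normalization and without the unnumbered sh-luc library (-0.025). Within each library ETV4 was 3.79 to 4.43 times as abundant as ETV5. This ratio was 3.96 ± 0.151 in sh-luc and 4.12 ± 0.322 in sh-IUR1 (SD, n = 3 each; two-sided exact permutation test, p = 0.6, where 0.1 is the smallest p that 3 libraries against 3 allow).

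SPRY2 was the most abundant Sprouty gene. It (gene identifier 10253) occupies positions 80335976 to 80341126 of chromosome 13, minus strand, with 2 exons. SPRY2 was at 5.56, 6.14 and 5.99 FPKM in sh-luc and at 6.79, 6.43 and 5.61 FPKM in sh-IUR1 libraries. The unnumbered and r1 libraries of sh-IUR1 were above every sh-luc library, and sh-IUR1 r2 was near the bottom of the range. The means were 5.90 ± 0.301 and 6.28 ± 0.605 FPKM (SD, n = 3 each), with a log2 fold change of 0.075 (standard error 0.089, 95% interval -0.12 to 0.27, limma adjusted p = 0.931). For SPRY2 this was 0.039 without the unnumbered sh-luc library, 0.024 without the unnumbered sh-IUR1 library and 0.14 without sh-IUR1 r2.

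SPRY4 (gene identifier 81848) occupies positions 142310430 to 142325021 of chromosome 5, minus strand, with 2 exons. It was at 2.23, 3.31 and 3.41 FPKM in sh-luc and at 3.22, 3.41 and 2.99 FPKM in sh-IUR1 libraries. The unnumbered sh-luc library was far below the other 5, which lay between 2.99 and 3.41 FPKM. SPRY4 had the largest log2 fold change of the 8 genes at 0.091 (standard error 0.12, 95% interval -0.18 to 0.36, limma adjusted p = 0.936). It was -0.053 without the unnumbered sh-luc library, so that its sign rested on this library.

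SPRY1 (gene identifier 10252), on the plus strand of chromosome 4 from 123396795 to 123403760 with 3 exons, was at 1.73, 2.22 and 2.53 FPKM in sh-luc and at 2.06, 2.20 and 1.68 FPKM in sh-IUR1 libraries. The highest value was in sh-luc r2 and the lowest in sh-IUR1 r2. SPRY1 had the widest spread of the 8 genes, with a coefficient of variation of 15.6%, and the lowest log2 fold change at -0.081 (standard error 0.11, 95% interval -0.33 to 0.17, limma adjusted p = 0.940). This was -0.18 without the unnumbered sh-luc library and 0.0033 without sh-luc r2. The summed FPKM of the 3 Sprouty genes was 11.04 ± 1.32 in sh-luc and 11.5 ± 1.02 in sh-IUR1 (SD, n = 3 each; two-sided exact permutation test, p = 0.5). SPRY2 made up 50.2% to 58.4% of this sum, SPRY4 made up 23.4% to 29.1%, and SPRY1 made up 16.3% to 21.2%. The share of SPRY1 was 19.5% ± 1.57 in sh-luc and 17.2% ± 0.975 in sh-IUR1, with overlap between the groups since the unnumbered sh-luc library was at 18.2% and sh-IUR1 r1 at 18.3% (p = 0.2 in the same exact test, n = 3 each).

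SPRED2 and SPRED1 bind neurofibromin, the RAS inactivator encoded by NF1, and bring it to the membrane. SPRED2 (gene identifier 200734) spans 125425 bases of chromosome 2 from 65307175 to 65432599 on the minus strand. It was at 16.5, 19.2 and 19.5 FPKM in sh-luc and at 18.7, 18.8 and 17.4 FPKM in sh-IUR1 libraries. The unnumbered sh-luc library was the lowest and the other sh-luc libraries the highest, with all sh-IUR1 libraries between them. The log2 fold change was -0.0043 (standard error 0.080, 95% interval -0.18 to 0.18, limma adjusted p = 0.994), and -0.078 without the unnumbered sh-luc library.

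SPRED1 (gene identifier 161742), on the plus strand of chromosome 15 from 38252836 to 38357249, was at 4.05, 4.28 and 3.77 FPKM in sh-luc and at 4.14, 4.06 and 4.0 FPKM in sh-IUR1 libraries. The sh-luc libraries held both the highest and the lowest value. SPRED1 alone of the 8 genes was not below its mean in the unnumbered sh-luc library. Its log2 fold change was 0.011 (standard error 0.079, 95% interval -0.17 to 0.19, limma adjusted p = 0.983). It was 0.014 without the unnumbered sh-luc library and turned negative with median-ratio scaling and with quantile normalization (-0.040). Within a library SPRED2 was 4.07 to 5.18 times as abundant as SPRED1, and this ratio was 4.58 ± 0.556 in sh-luc and 4.50 ± 0.138 in sh-IUR1 (SD, n = 3 each; two-sided exact permutation test, p = 0.9).

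DUSP5, a nuclear phosphatase that acts on ERK, had the lowest level of the 8 genes. It (gene identifier 1847) occupies positions 110497907 to 110511533 of chromosome 10, plus strand, with 4 exons. DUSP5 was at 0.910, 1.17 and 1.28 FPKM in sh-luc and at 1.30, 1.31 and 0.960 FPKM in sh-IUR1 libraries, so that the lowest value of each group was close to that of the other. DUSP5 had a log2 fold change of 0.047 (standard error 0.10, 95% interval -0.18 to 0.27, limma adjusted p = 0.954). It was -0.027 without the unnumbered sh-luc library and -0.00013 with quantile normalization. A pseudocount of 1 FPKM is close to the level of DUSP5 and draws log2 fold changes of low genes towards 0. With 0.1 FPKM instead, the value was 0.080 for DUSP5, -0.11 for SPRY1 and 0.12 for SPRY4.

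**Figure D1:**
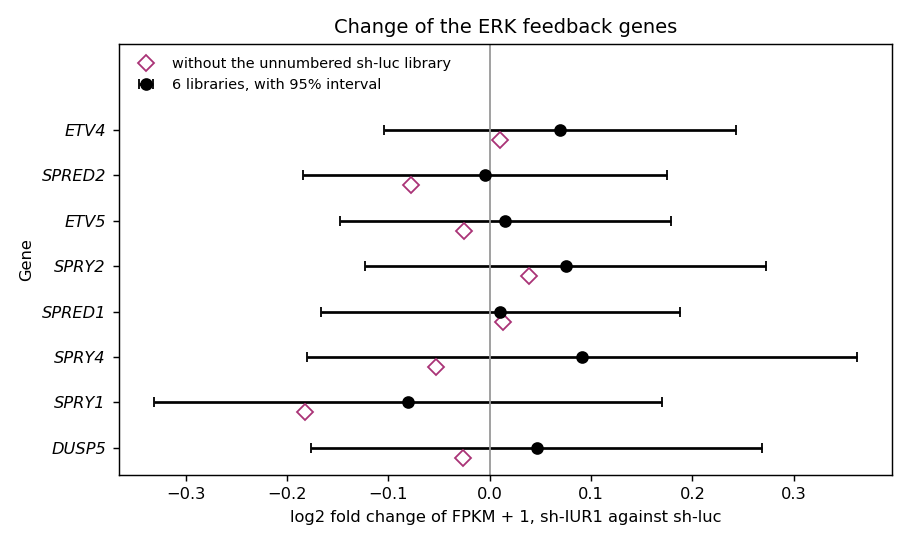
Log2 fold change of FPKM + 1 (horizontal axis) of each ERK feedback gene in sh-IUR1 against sh-luc cells. Filled circles with bars give the value and its 95% interval from limma with 6 libraries, and open diamonds the value without the unnumbered sh-luc library. Every interval includes 0, and SPRY4 moves from 0.091 to -0.053 when that library is left out.

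The 8 genes covered a wide range of levels. The order by mean FPKM over the 6 libraries was ETV4, SPRED2, ETV5, SPRY2, SPRED1, SPRY4, SPRY1 and DUSP5, from 45.6 down to 1.16 FPKM. All 6 libraries had this order. The ranges of neighbouring genes did not overlap except those of SPRY4 (2.23 to 3.41 FPKM) and SPRY1 (1.68 to 2.53 FPKM). ETV4 stood at the percentile 83.4 of mean FPKM among the genes tested, SPRED2 at 64.4 and ETV5 at 51.7, while DUSP5 stood at 14.5. ETV4 alone gave 48.7% to 51.6% of the summed FPKM of the 8 genes.

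The low and high values of the 8 genes fell in particular libraries of both groups. In the unnumbered sh-luc library 7 of the 8 genes were below their own mean log2(FPKM + 1) over the 6 libraries, and 6 of the 8 had their lowest value there, where 57.4% and 38.4% of all genes tested did so. In sh-IUR1 r2 also 7 of the 8 genes were below their own mean (49.1% of all genes), and in sh-luc r1 and sh-IUR1 r1 0 of the 8 were (42.8% and 47.2% of all genes). The mean of the stress genes deviated by -0.85 in the unnumbered sh-luc library and by 0.41 in sh-IUR1 r1, and the part of the stress response in the values of the ERK feedback genes was not tested. The coefficient of variation over the 6 libraries had a median of 7.56% for the 8 genes and of 8.46% for all genes tested. Without the unnumbered sh-luc library the median log2 fold change of the 8 genes was -0.026, with 3 genes above 0 and 5 below. The sh-IUR1 libraries were then all below the remaining sh-luc libraries for 2 genes, SPRY1 and SPRED2, as they were for 6.17% of all genes tested, while 0 of the 8 genes and 6.44% of all genes were higher without overlap. In that fit limma called 0 of the 8 genes and gave 0 an unadjusted p-value under 0.05.

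The profile of ETV4 over the libraries was compared with the other 10631 genes of at least 1 FPKM by the distance between z-scores. The nearest were AGTRAP, CTNND1 and PINK1, with root-mean-square distances of 0.058, 0.071 and 0.082 and Pearson's r of 0.998, 0.997 and 0.996 over 6 libraries of 2 groups. AGTRAP was at 70.9, 80.8 and 79.8 FPKM in sh-luc and at 79.4, 88.7 and 75.9 FPKM in sh-IUR1 libraries. With so few libraries and so many genes, such likeness describes these libraries only.

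The rest of the pathway was examined with lists of genes, none of which had a called gene. The cascade from adaptors to kinases was represented by 18 genes, all of them with values, of which 10 were higher and 8 lower in sh-IUR1, with a median log2 fold change of 0.026 that was 0.0034 without the unnumbered sh-luc library. With all 6 libraries and no replicate block, no gene of the cascade had an unadjusted p-value under 0.05. SOS1, the exchange factor that loads RAS with GTP, was the only gene of the cascade without overlap, at 7.01, 7.38 and 7.18 FPKM in sh-luc and 7.69, 7.90 and 7.41 FPKM in sh-IUR1 libraries. Its log2 fold change was 0.081 (limma adjusted p = 0.930) and 0.066 without the unnumbered sh-luc library, and 4.04% of all genes tested were higher in sh-IUR1 without overlap. KSR1, a scaffold for RAF, MEK and ERK, had the smallest p-value among the higher genes, with a log2 fold change of 0.28 that was 0.073 without the unnumbered sh-luc library. The unadjusted p of KSR1 was 0.112 in limma, 0.0357 with the replicate block and 0.0340 without sh-luc r1 (log2 fold change 0.41), and its adjusted p was 0.667 or more throughout. NRAS had that among the lower genes, with -0.15 and -0.078.

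Of 9 negative regulators of RAS signalling 8 had values, and 6 were higher and 2 lower, with a median log2 fold change of 0.052. Without the unnumbered sh-luc library 4 were higher and 4 lower, with a median of 0.013. The extremes by p-value were RASA1, a RAS GTPase-activating protein, at 0.096 (0.11 without that library) and PEBP1, an inhibitor of RAF, at -0.083 (-0.068). Among 10 transcription regulators of ERK output 9 had values, 6 higher and 3 lower, with a median of 0.032 that was 0.020 without that library. The extremes by p-value were ATXN1L, a partner of CIC, at -0.066 (-0.089) and the ERK substrate ELK1 at 0.068 (0.020). In both lists no gene had an unadjusted p-value under 0.05 or groups without overlap.

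The relatives of the feedback genes (other DUSP, SPRY and SPRED genes and ETV1) had values for 7 of 10 genes. These were DUSP genes and ETV1, with no SPRY or SPRED gene among them. Their median log2 fold change was 0.22, with 6 higher and 1 lower, and 0.040 without the unnumbered sh-luc library. DUSP8 was at 0.780, 0.820 and 0.960 FPKM in sh-luc and 1.23, 1.44 and 0.860 FPKM in sh-IUR1 libraries, a log2 fold change of 0.22 (limma unadjusted p = 0.0600, adjusted p = 0.930). DUSP8 was at 0.20 without the unnumbered sh-luc library, at 0.14 without sh-IUR1 r1 and at 0.33 without sh-IUR1 r2 (limma unadjusted p = 0.0064, adjusted p = 0.729). Its level is below that of DUSP5, and with a pseudocount of 0.1 FPKM its log2 fold change was 0.40. DUSP7, a cytoplasmic ERK phosphatase, was at 7.91 ± 0.442 and 7.69 ± 0.491 FPKM (SD, n = 3 each), a log2 fold change of -0.035 that was 0.0018 without the unnumbered sh-luc library.

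Other output genes of the pathway had values for 7 of 9 genes, 3 higher and 4 lower, with a median log2 fold change of -0.027. The sign of this median was not stable: it was -0.0012 without the unnumbered sh-luc library and between 0.00088 and 0.065 when any other library was left out. FOSL1, an AP-1 subunit, was at 19.17, 11.35 and 13.98 FPKM in sh-luc and 10.41, 9.83 and 11.28 FPKM in sh-IUR1 libraries. Every sh-IUR1 library was below every sh-luc library, and the unnumbered sh-luc library was far above the rest. The log2 fold change of FOSL1 was -0.43 (standard error 0.15, limma unadjusted p = 0.0169, adjusted p = 0.930), and -0.24 without the unnumbered sh-luc library. Over the alternatives it stayed below 0. The limma unadjusted p of FOSL1 then ran from 0.0013 (without sh-luc r1) to 0.0518 (without sh-IUR1 r1), and its adjusted p was 0.667 or more. With all 6 libraries and no block, FOSL1 was the only gene with an unadjusted p-value under 0.05 in the lists of the pathway, where 0.994% of all genes tested were lower at that level and 3.03% were lower without overlap. FOS had the smallest p-value among the higher genes, with a log2 fold change of 0.16 at 0.39 to 0.83 FPKM. It was 0.22 without the unnumbered sh-luc library, 0.074 without sh-IUR1 r2 and 0.37 with a pseudocount of 0.1 FPKM.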

How the data were processed

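RNA-seq of K562 cells gave 6 libraries, 3 sh-luc and 3 sh-IUR1. Per the study's methods, reads were trimmed, masked and mapped to hg38; the submitters' processing notes name SAMtools 0.1.19, and the aligner and annotation are not given in the sources used here. The authors deposited FPKM with 2 decimals for 12486 genes, none with a standard deviation under 0.0501 FPKM over the libraries. The study's methods call the values RPKM, and the file's header FPKM. The authors also deposited a standard score (z) for each value, and a cluster number (1 of 9) with a fraction, the membership in that cluster. These were not used. Symbols for 12363 identifiers came from RefSeq GRCh38.p14, and exon numbers from GENCODE release 44.

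log2(FPKM + 1) was fitted for 12276 genes (mean FPKM of 0.1 or more) with limma 3.58.1 in R 4.3.3 (eBayes with a trend, group as the only term), with Benjamini-Hochberg adjustment over all genes tested and a threshold of 0.05. Single quantities were compared by two-sided exact permutation tests. No count test was run, since the values are FPKM and the fragment counts are unknown. Of 81 low values of single-exon genes at most 34.6% came within 0.1 of a whole fragment, and evenly spread values give 20%. This check assumed the same depth for all libraries and kept the best of many depths. It therefore could not decide whether the values stem from whole fragments. Simulated data with known changes were used to test the fit. The members and lists were chosen with earlier results of these data known. Genes named are the members and, of each list of the pathway, those without overlap and the smallest p in each direction, and the 3 genes nearest to the most abundant member. Alternatives were quantile normalization, scaling by median ratios, a filter at 1 FPKM or none, 0.1 as the pseudocount, a fit with no trend, a replicate block, and each library left out. Other steps ran in Python 3.11.15 with numpy 2.4.6, pandas 2.3.3 and matplotlib 3.10.9.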

Additional observations from a re-analysis of the deposited data

How the results depend on the processing

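Under all 13 alternatives limma called 0 genes over the whole table and 0 of the 8 ERK feedback genes, and 0 of the 8 had an unadjusted p-value under 0.05. The adjusted p-values of the 8 genes lay between 0.713 and 1 over the alternatives. Over all genes, 325 had an unadjusted p-value under 0.05, a number that was 533 with the replicate block and ranged from 156 (without the unnumbered sh-IUR1 library) to 854 (without sh-luc r1) when 1 library was left out, with 712 without sh-IUR1 r2. Deviations of same-numbered libraries correlated at 0.044 (unnumbered), 0.39 (r1) and -0.34 (r2). Libraries with different numbers were not compared in this way, and whether the numbers pair the libraries was not tested. The block changed no call. Of 104 log2 fold changes of the 8 genes under alternatives, 91 kept their sign. Changed filters, the fit with no trend and the replicate block cannot move a log2 fold change, so some of the 91 kept it by design. Quantile normalization gave log2 fold changes of -0.00013 for DUSP5, -0.040 for SPRED1 and -0.012 for ETV5, and with median-ratio scaling -0.0059 for SPRED1 and -0.0034 for ETV5. With 1 library left out it ranged from -0.027 to 0.12 for DUSP5, -0.18 to 0.0033 for SPRY1, -0.053 to 0.17 for SPRY4, -0.027 to 0.046 for SPRED1, -0.078 to 0.037 for SPRED2, -0.025 to 0.049 for ETV5 and -0.077 to 0.0043 for DUSP7; the cause was not tested. Of the list medians, that of the other output genes was -0.058 and that of the transcription regulators 0.0093 with quantile normalization, and the latter was 0.012 with median-ratio scaling. ETV4 and SPRY2 were higher in sh-IUR1 under each alternative, with log2 fold changes as low as 0.0098 for ETV4 and 0.024 for SPRY2. Unknown fragment counts limit what can be said of DUSP5 and SPRY1.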
